A study of Mus musculus with 4 samples.

Results

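The C-type lectin genes of the Clec and Klr families were examined in ureter tumors and normal ureter of mice. Members were the probe sets that the platform annotation assigned to a single gene with a Clec or Klr symbol, the symbol having to consist of the family name, a number and letters. This rule gave 62 probe sets for 44 genes, of the 18193 genes and 45101 probe sets of the series. Of these, 26 were Clec genes with 36 probe sets and 18 were Klr genes with 26 probe sets. The rule used symbols alone and no measured value. Genes read only by probe sets of several genes were not members.

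RNA came from C57Bl/6 mice aged 6 to 8 weeks, with 2 ureter tumor samples and 2 normal ureter samples, each on 1 Affymetrix expression array. All 4 samples carry one treatment text, which names R26rtTA, teto-Cre and Ncstnf/f and doxycycline given for 1 week from the age of 3 weeks. The genotype of each sample is therefore not stated, and the animals behind the samples called biological replicates are not named. R26rtTA is driven from a widely active locus, so that doxycycline can switch on Cre outside the urothelium. Values are MAS5 signals, an arbitrary brightness per probe set that the authors had scaled to one target on each array.

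C-type lectins share a fold that binds sugars in some members and proteins in others. Many Clec receptors sit on macrophages, monocytes, dendritic cells and neutrophils, where they read glycans of microbes and of dying cells. Activating members such as Dectin-1 and Dectin-2 signal through the kinase Syk and the adaptor Card9, directly or through the partner chains Fcer1g and Tyrobp, while inhibitory members recruit phosphatases such as Ptpn6. The Klr genes encode receptors of natural killer (NK) cells and some T cells, which bind MHC class 1 molecules, stress ligands, cadherins or Clec2 proteins. In the mouse most genes of both families lie in a few clusters of chromosome 6, and 19 of the 26 Clec genes and all 18 Klr genes measured here lay there in the GRCm38.p6 annotation.

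The labelled tissue was checked against marker lists. Among 10 urothelial markers, Upk1b, Upk3a and Krt20 fell in the tumors (limma adjusted p from 0.0369 to 0.0425) and 7 did not pass. These 3 calls ended with no intensity trend, the replicate block and without either normal array, and those of Krt20 and Upk1b also with centring on the array median. The summed signal of the 10 was 36568 and 2561 on the tumor arrays, against 36197 and 60765 on the normal arrays. With no overlap 7 were lower, and Krt5, Trp63 and Foxa1 overlapped. These 3 lay above both normal arrays on tumor replicate 1 and below both on replicate 2. Krt5 gave 15780 and 628 in the tumors, against 3415 and 5518 in normal ureter. All 4 samples are described as isolated ureter epithelium. The 5 fat cell markers summed to 35471 and 6086 in the tumors, against 240981 and 257884 in normal ureter, and the 6 smooth muscle markers to 16162 and 26829 in the tumors, against 54404 and 43355 in normal ureter. Ucp1 and Myh11 fell. The brightest markers by mean signal were Upk1b, with 434 and 183 in the tumors and 11549 and 19745 in normal ureter, Fabp4, with 25536 and 6072 in the tumors and 105906 and 124150 in normal ureter, and Acta2, with 9957 and 18209 in the tumors and 35083 and 27665 in normal ureter. The ratio of 3' to 5' signal of Gapdh, a sign of RNA integrity, was 1.51 and 1.44 in the tumors and 0.92 and 0.923 in normal ureter. That of Actb went the other way, with 2.47 and 2.63 in the tumors and 2.90 and 2.82 in normal ureter. The part of tissue makeup and RNA quality in the differences below was not tested. In RNA from many cells, more cells of a type and more RNA per cell cannot be told apart.

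The signals of 5 Clec receptors known from myeloid cells were higher in the tumors by an unadjusted rule, and NK receptors of the Klr family were dim in both tissues. No member passed the limma test at a Benjamini-Hochberg adjusted p under 0.05, in either direction. Of all 13046 genes tested, 1.43% passed, 0.491% higher and 0.943% lower. A gene was tested where its brightest probe set had a mean signal of at least 54.6, on the scale log2(signal + 16). By that filter 18 of the 44 members were tested, 16 Clec genes and 2 Klr genes, and 26 lay below it. Clec4n and Clec4e passed it through their tumor values alone. By a second rule, an unadjusted p under 0.05 with a difference of at least 2-fold, 5 members were higher and 0 were lower, where 6.91% and 7.5% of all genes tested were. These were Clec4n, Clec4a2, Clec4a3, Clec7a and Clec4d, so that the count of 5 includes Clec4n, which the filter kept for its tumor values. An unadjusted p under 0.05 was reached by 6 members, these and Clec11a, all higher, beside 10.6% of all genes tested. By it 0 members and 10.9% of genes were lower. Leaving out normal ureter replicate 2 left only Clec4n and Clec4a2 under the second rule, 2 genes in place of 5. With no filter, 9 of all 44 members were higher by the second rule and 1 was lower, against 6.14% and 6.85% of the 18193 genes. The 4 added as higher were Clec5a, Clec2i, Clec2e and Klra17, and the 1 lower was Klrk1.

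In 15 of all 44 members the lower tumor value exceeded the higher normal value (34.1%), and in 4 the reverse held (9.09%). Over the 18193 genes of the series these shares were 25.5% and 25.9%. Among Clec genes 13 of 26 lay above and 2 below, and among Klr genes 2 of 18 lay above and 2 below. The median log2 difference was 0.45 over the 26 Clec genes and 0.08 over the 18 Klr genes, beside 0.00 over all genes. Many members had signals at which MAS5 values scatter widely, and 14 of the 44 stayed under 54.6 on every array. The difference between Clec and Klr genes was not tested.

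**Figure D1:**
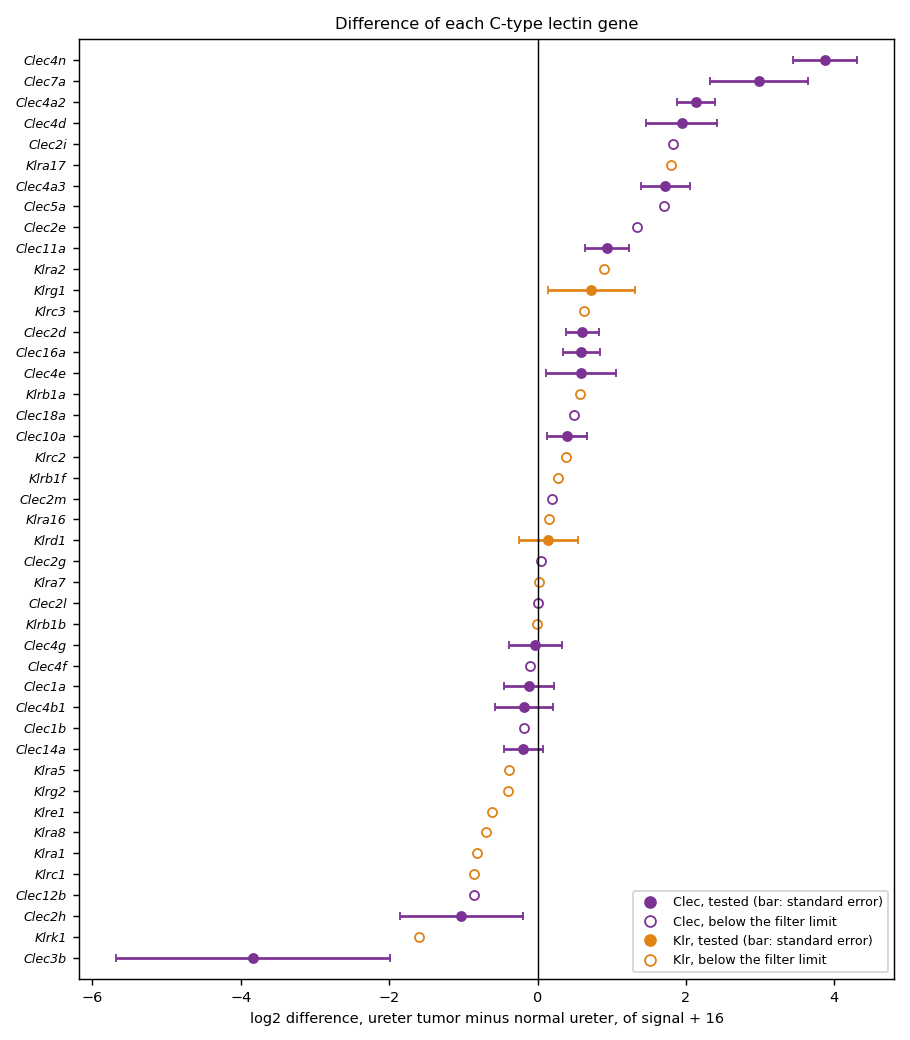
Log2 difference of signal + 16, ureter tumor minus normal ureter, for each of the 44 genes, with filled points for the 18 tested genes (bars: standard error of the limma fit) and open points for the 26 below the filter. Clec4n stands at the top with 3.88 and Clec3b at the bottom with -3.83, while the Klr points with a bar lie at 0.72 and 0.14.

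The Dectin-2 cluster held 4 of the 5 members that met the second rule. Clec4n, which encodes Dectin-2, a receptor for fungal mannans that signals through Fcer1g, had a signal of 761 and 1319 in the tumors, against 70.8 and 39.4 in normal ureter (1419627_s_at). Both tumor arrays lay far above both normal arrays. The mean of its normal arrays lay just under the filter limit, so the gene was tested through its tumor values alone. The log2 difference was 3.88 (n = 2 each, SE 0.44, limma adjusted p = 0.0505), 14.7-fold on the scale of signal + 16. The second probe set, 1425951_a_at, gave 359 and 618 in the tumors and at most 29.3 in normal ureter. The gene thus stood just short of the threshold, and 7 of 15 alternatives put it past, with adjusted p-values from 4.94e-07 to 0.655 over the 15.

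Clec4a2 encodes Dcir, an inhibitory receptor of dendritic cells and macrophages that recruits phosphatases. Its signal was 745 and 663 in the tumors, against 133 and 163 in normal ureter (1422013_at). The tumor arrays were close to each other and did not overlap the normal ones, with a log2 difference of 2.14 (n = 2 each, SE 0.26, limma adjusted p = 0.0554). Averaging in the dim probe set 1425406_at, with 58.0 and 20.1 in the tumors and 45.2 and 2.67 in normal ureter, lowered the difference to 1.37 (adjusted p = 0.203).

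Clec4a3, a relative of Clec4a2, gave 1029 and 667 in the tumors and 275 and 210 in normal ureter, a log2 difference of 1.72 (SE 0.33, limma adjusted p = 0.104). Clec4d, which encodes the receptor MCL that pairs with Mincle, gave 233 and 528 in the tumors and 79.9 and 80.0 in normal ureter, a log2 difference of 1.94 (SE 0.48, limma adjusted p = 0.146). In both genes the tumor arrays lay above the normal arrays, with the higher signal on replicate 1 for Clec4a3 and on replicate 2 for Clec4d. The only probe set of Clec4d, 1420804_s_at, and 1419627_s_at of Clec4n are of a kind whose probes can be shared between transcripts.

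The other members of the cluster differed little. Clec4e encodes Mincle, a receptor for mycobacterial glycolipid, and passed the filter through its tumor values alone. It gave 75.2 and 69.4 in the tumors and 27.9 and 62.8 in normal ureter (log2 difference 0.59, SE 0.47, limma adjusted p = 0.525). Its second probe set, 1420331_at, pointed the other way, with 3.04 and 12.7 in the tumors and 32.7 and 33.9 in normal ureter. Clec4b1 gave 92.1 and 164 in the tumors and 144 and 140 in normal ureter, and its groups overlapped. Along chromosome 6 the GRCm38.p6 annotation places the genes in the order Clec4a3, Clec4a4, Clec4b1, Clec4a2, Clec4b2, Clec4n, Clec4d and Clec4e. The 4 that met the second rule were thus not one unbroken block, since Clec4b1 lies among them, and Clec4d and Clec4e are neighbours.

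**Figure D2:**
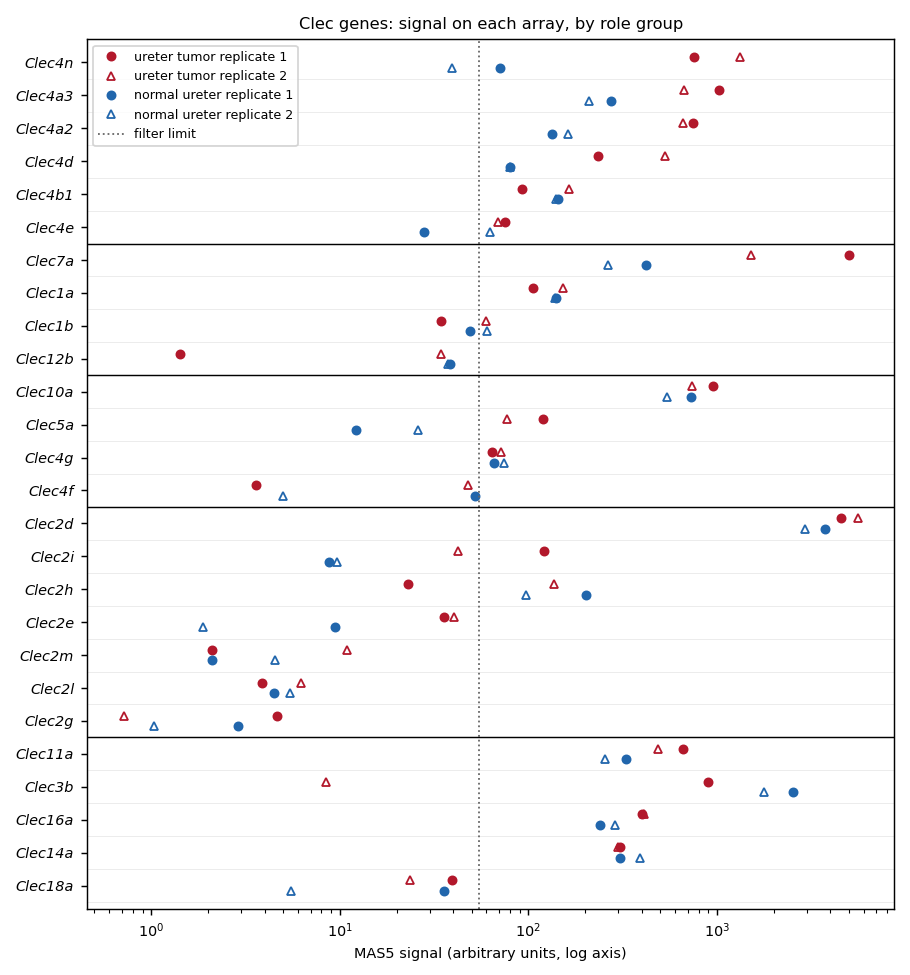
MAS5 signal on a log axis for the 26 Clec genes on each of the 4 arrays, ordered by role from the Dectin-2 cluster at the top to endothelial, secreted and other genes at the bottom. Clec4n, Clec4a3, Clec4a2, Clec4d and Clec7a show both tumor arrays clear of both normal arrays, and Clec3b shows 1 tumor array at 8.48.

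Promoters are shown for the members that met the second rule and have an entry in the RefSeq promoter table (GRCm38.p6), together with Clec4e as the neighbour of Clec4d that did not. Clec4a3 has an entry too and is not printed. Each run holds 250 bases before and 50 after the annotated start, 5′ to 3′ on the gene's strand, the first listed start being used. Capitals mark GAGGAA or its reverse complement TTCCTC, the core letters of sites bound by the myeloid factor PU.1.
Clec4d, chr6:123261857-123262156, plus strand: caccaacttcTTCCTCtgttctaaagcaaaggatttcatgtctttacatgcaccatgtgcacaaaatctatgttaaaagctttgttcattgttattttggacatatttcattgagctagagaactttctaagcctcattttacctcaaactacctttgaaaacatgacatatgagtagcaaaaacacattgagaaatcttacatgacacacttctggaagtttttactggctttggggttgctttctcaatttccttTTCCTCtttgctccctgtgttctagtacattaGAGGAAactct
Clec4e, chr6:123289822-123290121, minus strand: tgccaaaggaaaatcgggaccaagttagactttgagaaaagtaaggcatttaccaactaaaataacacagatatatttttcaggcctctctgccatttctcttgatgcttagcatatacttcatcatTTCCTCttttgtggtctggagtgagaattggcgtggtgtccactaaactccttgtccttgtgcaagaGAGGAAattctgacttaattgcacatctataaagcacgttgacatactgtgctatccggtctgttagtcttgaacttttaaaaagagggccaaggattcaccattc
Clec7a, chr6:129472730-129473029, minus strand: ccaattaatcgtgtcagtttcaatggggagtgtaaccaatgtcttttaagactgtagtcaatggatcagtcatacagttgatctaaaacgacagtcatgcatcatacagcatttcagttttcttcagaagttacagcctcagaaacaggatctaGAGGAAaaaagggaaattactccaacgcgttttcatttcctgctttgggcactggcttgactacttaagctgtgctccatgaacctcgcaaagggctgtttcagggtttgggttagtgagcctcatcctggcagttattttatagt
Clec4a2, chr6:123122440-123122739, plus strand: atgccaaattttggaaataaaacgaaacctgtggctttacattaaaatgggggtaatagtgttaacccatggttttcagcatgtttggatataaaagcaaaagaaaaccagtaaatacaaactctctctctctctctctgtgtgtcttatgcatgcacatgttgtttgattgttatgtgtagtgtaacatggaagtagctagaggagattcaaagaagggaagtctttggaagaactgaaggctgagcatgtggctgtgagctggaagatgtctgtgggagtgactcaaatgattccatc

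GAGGAA was searched on both strands. Clec4d held it 3 times, Clec4e 2 times and Clec7a 1 time, and Clec4a2 and Clec4a3 held it 0 times. Of the 37 members with an entry, 18 (48.6%) held at least 1 copy, beside 28.3% of all 32851 promoters of the table. The AP-1 letters TGANTCA, which read alike on both strands, stood in 9 of the 37 members (24.3%) and in 7.81% of all promoters, with 1 copy in Clec4a2. Members include neighbouring copies with related sequence, so these shares are descriptions, and a match is not a bound site. Clec4d and Clec4e both held GAGGAA although their signals differed, as the values above show.

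In the Dectin-1 cluster 1 gene stood out. Clec7a encodes Dectin-1, the receptor for fungal beta-glucan that signals through Syk. Its signal was 5028 and 1517 in the tumors, against 423 and 265 in normal ureter (1420699_at). The groups did not overlap, and tumor replicate 1 was 3.31-fold brighter than tumor replicate 2. The log2 difference was 2.98 (n = 2 each, SE 0.66, limma adjusted p = 0.127). Clec1a, expressed by endothelium and some myeloid cells, gave 106 and 153 in the tumors and 140 and 139 in normal ureter, and its groups overlapped. Clec1b, the podoplanin receptor of platelets, stayed between 34.6 and 60.6 on all arrays, and the inhibitory receptor Clec12b did not exceed 38.4.

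Other myeloid receptors differed less or were dim. Clec10a, the galactose lectin Mgl1 of macrophages and dendritic cells, gave 956 and 736 in the tumors and 732 and 544 in normal ureter. Both tumor arrays were the higher, but the log2 difference was 0.40 (SE 0.27, limma adjusted p = 0.456). Clec5a, a myeloid receptor that signals through Tyrobp, gave 120 and 76.6 in the tumors, against 12.2 and 26.0 in normal ureter. Its mean lay below the filter, so it has no test in the main comparison, and its log2 difference was 1.70. Clec4g, known from liver sinusoidal endothelium, stayed between 64.4 and 74.1 on all arrays, and Clec4f, the Kupffer cell receptor, did not exceed 52.2.

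Macrophage and general leukocyte markers also had higher signals in the tumors than in normal ureter. Of 10 macrophage and monocyte markers 4 rose (Csf1r, C1qb, Mpeg1 and Ms4a7) and 6 did not pass, with all 10 non-overlapping and higher, where 29.4% of all genes tested were. All 4 calls ended with centring on the array median, no intensity trend, the replicate block and without either normal array. That of Csf1r also ended with no filter and that of Ms4a7 with averaged probe sets. Csf1r, the brightest, gave 17035 and 15523 in the tumors and 4415 and 3949 in normal ureter. The median log2 difference of the list was 2.12, beside 0.03 over all genes tested. The summed signal of the list was 51459 and 40873 in the tumors, against 11100 and 9534 in normal ureter. Of the 8 general leukocyte markers 0 passed limma's test and 8 were higher by the second rule, where 6.91% of all genes tested were. They summed to 50365 and 18394 in the tumors and 5699 and 5227 in normal ureter. Laptm5, Ptprc, Lcp1 and Cd52, the brightest at 13679 and 3939 in the tumors and 1147 and 1065 in normal ureter, had log2 differences of 2.97, 2.29, 2.32 and 2.71 (limma adjusted p from 0.0773 to 0.137). No marker of either list was at 0 on any array. Of 6 dendritic cell markers tested, Cd74 rose and 5 did not pass, and the 9 measured summed to 36814 and 25926 in the tumors, against 9275 and 8912 in normal ureter. The call of Cd74 ended with centring on the array median, no intensity trend, the replicate block and without either normal array. H2-Aa, the brightest dendritic cell marker, gave 29423 and 21683 in the tumors, against 7911 and 7639 in normal ureter, most of the sum on each array. Of all 9 measured, 7 were higher with no overlap and 0 lower, beside 25.5% and 25.9% of all genes. Zbtb46 and Xcr1 overlapped, with log2 differences of -0.32 and -0.44. The part of these cell types in the Clec differences was not tested.

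The tumor arrays differed in which receptors led. On replicate 1 Clec7a, Clec4n and Clec4a2 stood 3.84, 3.49 and 2.22 log2 units above the normal mean, and on replicate 2 they stood 2.13, 4.27 and 2.05 above it. Clec4d stood 1.38 above on replicate 1 and 2.50 on replicate 2. Clec4n and Clec4d were thus the higher on replicate 2, where the general leukocyte markers had the lower sum. Neutrophil markers summed to 24361 on tumor replicate 1 and 1599 on tumor replicate 2, against 396 and 302 in normal ureter. Of 5 tested, 0 passed limma's test and 3 were higher by the second rule. Ltf and Csf3r passed the filter through their tumor values alone, so that a count among the 5 carries no weight. Over all 8 measured, 7 were higher on both tumor arrays with no overlap and 0 lower, beside 25.5% and 25.9% of all genes. Ltf, the brightest, gave 12837 and 401 in the tumors and 8.04 and 14.0 in normal ureter, and S100a9, S100a8 and Csf3r, each the higher on tumor replicate 1, stood 5.49, 5.53 and 2.35 log2 units above the normal mean there and 2.35, 2.06 and 1.36 on replicate 2. With 1 sample behind each, the difference between tumors has no test.

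**Figure D3:**
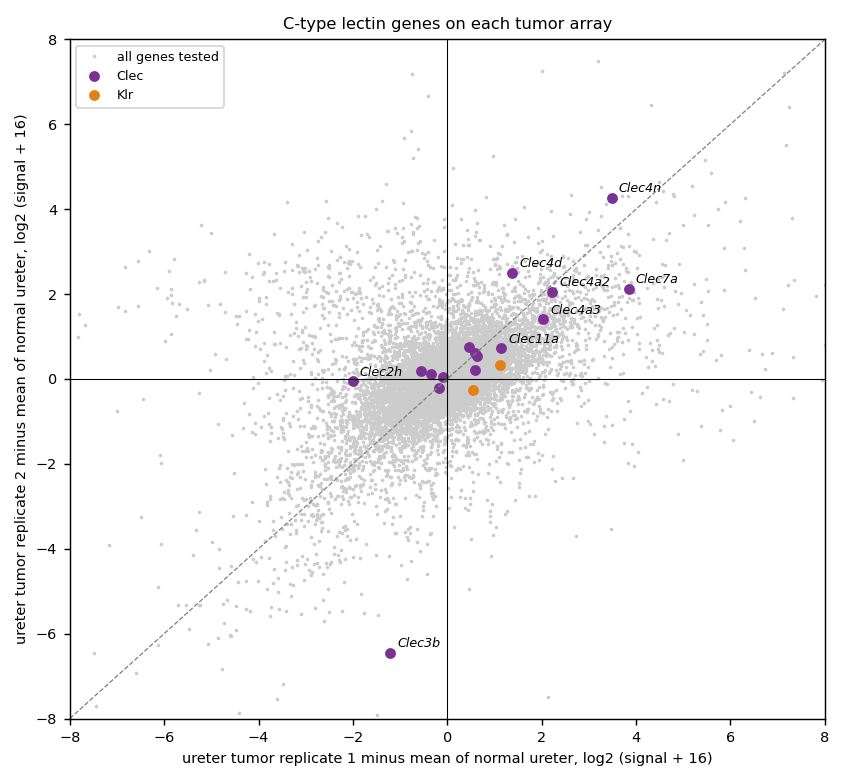
Log2 (signal + 16) minus the mean of normal ureter on ureter tumor replicate 1 (horizontal axis) and replicate 2 (vertical axis), with grey points for all 13046 genes tested, of which 18 lie outside the axes, and the 18 tested members in colour. Clec4n and Clec4d lie above the dashed line of equal difference, Clec7a and Clec4a3 below it, and Clec3b lies at -1.22 and -6.45.

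Signaling partners of these receptors had mostly higher values and none passed the test. Of 21 genes tested in the Syk and Card9 pathway list, 0 passed, 16 were higher on both tumor arrays with no overlap and 0 were lower in that way, beside 29.4% and 27.7% of all genes tested. By the second rule 10 were higher and 0 lower, beside 6.91% and 7.5% of all genes tested. Btk, Fgr and Hcst, among the 10, passed the filter through their tumor values alone. The median log2 difference of the list was 1.02. Tyrobp, the Dap12 chain used by Clec5a, gave 7517 and 4407 in the tumors and 1180 and 948 in normal ureter, a log2 difference of 2.43 (SE 0.33, limma adjusted p = 0.0661). Fcer1g, the chain used by Dectin-2, MCL and Mincle, gave 4035 and 2480 in the tumors and 885 and 719 in normal ureter (1.97, SE 0.31, adjusted p = 0.0807). The adaptor Blnk and the phospholipase Plcg2 had log2 differences of 2.05 and 1.80 (limma adjusted p = 0.1 and 0.13). Syk itself, named after its values were seen, gave 924 and 313 in the tumors and 226 and 180 in normal ureter (1.35, limma adjusted p = 0.288).

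Among the phosphatases that inhibitory lectin receptors recruit, 0 of 4 passed limma's test and 0 met the second rule. Ptpn6 and Inpp5d, which leukocytes express, had log2 differences of 0.95 and 1.60 (limma adjusted p = 0.242 and 0.26). The widely expressed Ptpn11 and Inppl1 had log2 differences of -0.25 and -0.09 (limma adjusted p = 0.478 and 0.837), and the sign of Inppl1 turned with centring on the array median. Of 14 cytokines and inflammatory genes downstream of the Dectin receptors, 6 were bright enough to test. Ptgs2, Cxcl2 and Il6 passed the filter through their tumor values alone, so that a count of directions among the 6 carries no weight. Over all 14, 8 were higher on both tumor arrays with no overlap, 1 was lower (Tnf, with 34.7 and 40.3 in the tumors and 58.6 and 57.9 in normal ureter) and 5 overlapped, beside 25.5% and 25.9% of all genes higher and lower in that way. The neutrophil chemokine Cxcl1 rose, with 536 and 615 in the tumors against 90.7 and 76.9 in normal ureter (log2 difference 2.57, SE 0.28, limma adjusted p = 0.0487), and 5 did not pass. That call ended with centring on the array median, no filter, averaged probe sets, no intensity trend, the replicate block and without either normal array.

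C-type lectin receptors outside the Clec and Klr symbols gave 0 of 16 tested genes past the threshold. By the second rule 5 were higher and 1 was lower, beside 6.91% and 7.5% of all genes tested. Olr1, among the 5, passed the filter through its tumor values alone, and Sele, the 1 lower, through its normal values alone. Of all 23 measured, 10 were higher with no overlap and 3 lower, beside 25.5% and 25.9% of all genes. Those with the smallest p were Cd72, an inhibitory receptor of B cells and some macrophages, with a log2 difference of 1.96, and the scavenger receptor Colec12 with 1.64. Mrc2, a collagen receptor of fibroblasts, had 2.11, and Mrc1, the macrophage mannose receptor, had 1.65 (limma adjusted p from 0.0742 to 0.179 over the 4). Mrc2 gave 734 and 1812 in the tumors against 269 and 244 in normal ureter, while Mrc1 gave 4979 and 2059 in the tumors against 1155 and 887 in normal ureter.

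The Clec2 genes encode Clr proteins, cell-surface ligands of Klrb1 receptors. Clec2d, or Clr-b, which inhibits NK cells through Klrb1b, had the highest mean signal of all members, at 4545 and 5585 in the tumors and 3732 and 2931 in normal ureter. Its tumor arrays lay above its normal arrays, with a log2 difference of 0.60 (SE 0.23, limma adjusted p = 0.241). Clec2h, known from gut and kidney epithelium, gave 23.1 and 136 in the tumors and 202 and 97.4 in normal ureter, and its groups overlapped (log2 difference -1.03, SE 0.83, limma adjusted p = 0.526). Its other probe sets did not overlap and were lower in the tumors, with 1.56 and 91.0 against 272 and 122 in normal ureter for 1431240_at. For 1451438_s_at the values were 44.9 and 67.8 in the tumors and 120 and 138 in normal ureter. Clec2i gave 122 and 42.4 in the tumors and 8.80 and 9.70 in normal ureter (1422166_at), while its second probe set, 1456426_at, overlapped, with 73.5 and 27.5 in the tumors and 0.93 and 31.0 in normal ureter. Clec2e gave 35.7 and 40.1 in the tumors and 9.47 and 1.88 in normal ureter. Both genes lay below the filter. Clec2g, Clec2l and Clec2m did not exceed 10.9 on any array.

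NK receptors of the Klr family were dim. Only Klrd1 and Klrg1 of the 18 genes passed the filter, and neither passed the test. Klrd1, the Cd94 chain that pairs with Nkg2 proteins, was the brightest at 224 and 123 in the tumors and 146 and 153 in normal ureter. Its tumor arrays lay on either side of the normal arrays (log2 difference 0.14, SE 0.40, limma adjusted p = 0.87), and the sign turned without tumor replicate 1, at -0.25. Klrg1, an inhibitory receptor that binds cadherins, gave 169 and 90.9 in the tumors and 111 and 40.9 in normal ureter, with overlap (0.72, SE 0.59, limma adjusted p = 0.53).

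The partners of Klrd1 and their relatives lay below the filter. Klrk1, the activating receptor Nkg2d, gave 6.96 and 29.2 in the tumors, against 81.9 and 80.6 in normal ureter, the lower signal on both tumor arrays. Klrc1, Klrc2 and Klrc3, the Nkg2 chains that pair with Klrd1, did not exceed 40.5 on any array in their brightest probe sets, and Klre1 did not exceed 43.5. Klrg2 gave 8.97 and 101 in the tumors and 123 and 20.4 in normal ureter. The spread within each group was wider than the difference between the group means.

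The NKR-P1 receptors were read by 8 probe sets for Klrb1a, Klrb1b and Klrb1f, none of which passed the filter. Klrb1b, the receptor for Clec2d, gave 88.1 and 20.7 in the tumors and 39.8 and 52.7 in normal ureter by its brightest probe set, with overlap. Another of its probe sets, 1420421_s_at, did not overlap, with 77.2 and 69.8 in the tumors and 18.2 and 4.60 in normal ureter. Of its 5 probe sets 2 were non-overlapping and higher in the tumors, and 3 overlapped. Klrb1f gave 103 and 1.09 in the tumors and 46.8 and 6.16 in normal ureter.

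Among the 7 Ly49 receptor genes, which bind MHC class 1 and share much sequence, 0 were tested. Klra17 (Ly49Q), known from plasmacytoid dendritic cells and other myeloid cells, gave 167 and 76.0 in the tumors, against 13.2 and 31.9 in normal ureter. Klra2 (Ly49B), also known from myeloid cells, gave 65.6 and 42.7 in the tumors, against 12.0 and 33.5 in normal ureter. These were the 2 Klr genes whose tumor arrays both lay above the normal arrays, with log2 differences of 1.80 and 0.89. Klra1 lay below them at 0.81 and 1.29 in the tumors, against 3.09 and 31.6 in normal ureter, and Klra5, Klra7, Klra8 and Klra16 overlapped. Probe sets of this group can be shared between copies, so single Klra genes are uncertain.

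**Figure D4:**
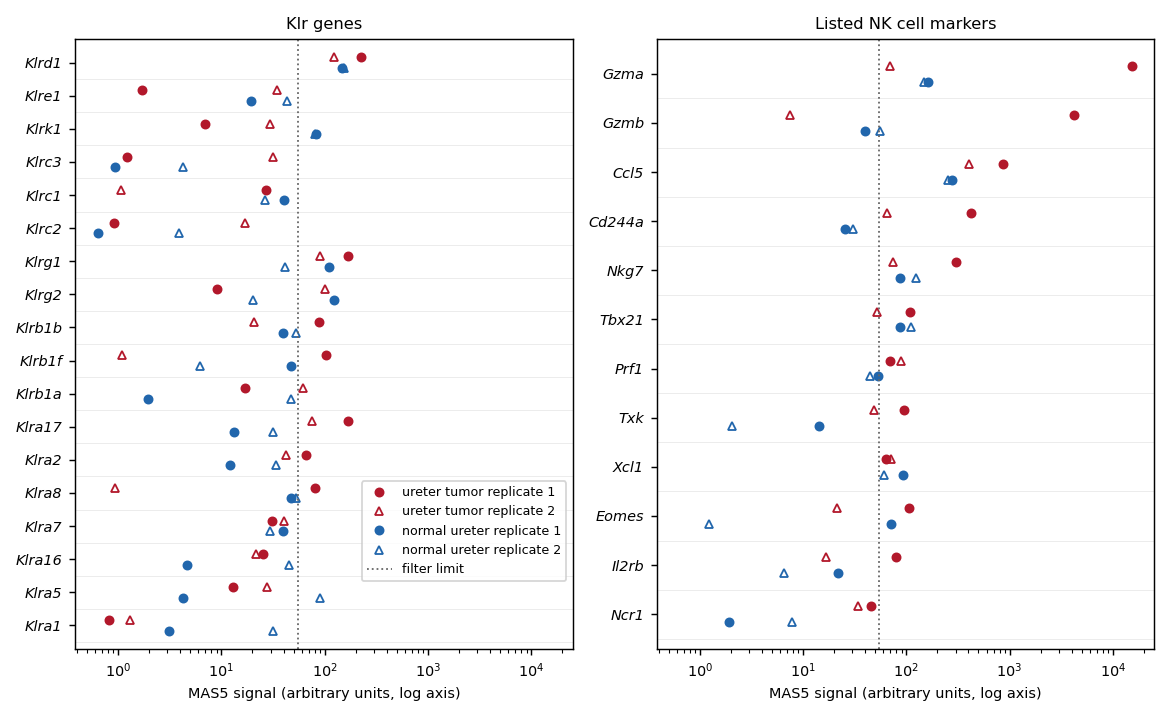
MAS5 signal on a log axis for the 18 Klr genes (left) and 12 listed NK cell markers (right) on each array, with the filter limit of 54.6 dotted. Klr signals stay at or below 224, while Gzma reaches 15262 on ureter tumor replicate 1 and 69.4 on replicate 2.

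Markers of NK cells did not pass limma's test either, with 0 of 8 tested and 0 by the second rule. Over all 12 measured, 5 were higher on both tumor arrays with no overlap, 0 were lower and 7 overlapped, beside 25.5% and 25.9% of all genes higher and lower. Their summed signal over 12 genes was 21589 and 957 in the tumors, against 930 and 845 in normal ureter, and none was at 0. The high sum came from tumor replicate 1, where the granzyme Gzma gave 15262, beside 69.4 on tumor replicate 2 and 161 and 147 in normal ureter. On that array Klrd1 gave 224, Klrk1 6.96 and the NK receptor Ncr1 45.4. Ncr1, which lay below the filter, gave 34.1 on tumor replicate 2 and 1.90 and 7.86 in normal ureter. The chemokine Ccl5, the receptor Cd244a and perforin (Prf1) had log2 differences of 1.12, 2.11 and 0.54 (limma adjusted p from 0.252 to 0.47), that of Cd244a being 3.32 on tumor replicate 1 and 0.89 on replicate 2. T cell markers gave 0 of 7 past limma's test and 1 lower by the second rule (Cd8a, log2 difference -1.10), beside 7.5% of all genes tested. They summed to 1672 and 548 in the tumors and 591 and 484 in normal ureter. Cd5, Cd3g and Cd28 had log2 differences of 0.94, 1.20 and 1.06, and Cd3d was the brightest, with 557 and 94.9 in the tumors and 77.7 and 91.5 in normal ureter. Mast cell markers gave 0 of 8 past limma's test and 1 higher by the second rule, beside 6.91% of all genes tested. Mcpt1, Mcpt2 and Fcer1a, among the 8, passed the filter through their tumor values alone. The mast cell list summed to 110287 and 692 in the tumors, against 835 and 772 in normal ureter. The brightest, Mcpt2, gave 52197 and 33.7 in the tumors and 2.21 and 2.43 in normal ureter, and Kit had a log2 difference of 1.85. Those of Mcpt1 and Fcer1a, 5.24 and 3.45, rested on tumor replicate 1, which stood 10.12 and 7.33 log2 units from the normal mean, against 0.36 and -0.44 on tumor replicate 2.

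Ligands of NK and Clec receptors gave 0 of 7 tested genes past the threshold. By the second rule 0 were higher and 1 was lower, beside 6.91% and 7.5% of all genes tested. Of all 8 measured, 3 were higher with no overlap and 3 lower, beside 25.5% and 25.9% of all genes. H60c, a ligand of Klrk1, gave 91.4 and 128 in the tumors, against 424 and 513 in normal ureter, a log2 difference of -1.95 (SE 0.31, limma adjusted p = 0.0813). Cdh1, E-cadherin and a ligand of Klrg1, gave 13206 and 9908 in the tumors, against 5777 and 6945 in normal ureter (0.85, SE 0.24, limma adjusted p = 0.174). The list also held Sap130 and Reg3g, a secreted lectin of mucosa that is not an established ligand of a member. Reg3g gave 6590 and 98.9 in the tumors and 12.6 and 14.5 in normal ureter, 7.81 and 1.96 log2 units above the normal mean on the 2 tumor arrays (limma adjusted p = 0.278). The log2 difference of Sap130 was -0.51 (limma adjusted p = 0.253).

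Of the secreted and endothelial Clec genes, Clec3b had a difference whose size depended on 1 tumor array. Clec3b encodes tetranectin, a plasminogen-binding protein of plasma and connective tissue. Its signal was 903 and 8.48 in the tumors, against 2536 and 1775 in normal ureter (1449466_at). Both tumor arrays were lower, and the signal of 8.48 on tumor replicate 2 lay under the filter limit, where values scatter widely. The log2 difference of -3.83 did not pass (n = 2 each, SE 1.84, limma adjusted p = 0.321). Without tumor replicate 2 it was -1.22 and without tumor replicate 1 it was -6.45. Fibroblast markers gave 0 of 7 past limma's test, with 1 higher and 1 lower by the second rule, beside 6.91% and 7.5% of all genes tested. They summed to 144267 and 69887 in the tumors and 112608 and 84192 in normal ureter. Col1a1, Fap, Col1a2 and Pdgfra had log2 differences of 1.00, -1.23, 0.86 and 0.82, and Dcn was the brightest by mean signal, with 41972 and 11313 in the tumors and 39809 and 34038 in normal ureter. Fat cell markers, with 1 of 5 lower past the test (Ucp1), had the lower sum on tumor replicate 2 as well, and their part in the difference of Clec3b was not tested.

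Clec11a, a growth factor of bone marrow stroma, gave 659 and 488 in the tumors and 328 and 254 in normal ureter, with a log2 difference of 0.94 (SE 0.29, limma adjusted p = 0.191). Clec16a, an endosomal protein that is no lectin receptor despite its name, gave 403 and 409 in the tumors and 241 and 289 in normal ureter (0.59, SE 0.25, limma adjusted p = 0.281). Clec14a, a receptor of endothelial cells, gave 306 and 297 in the tumors and 306 and 393 in normal ureter, with overlap. Its dim second probe set, 1419468_at, was higher in the tumors with no overlap. It gave 69.0 and 78.1 in the tumors and 9.80 and 68.0 in normal ureter. The 10 endothelial markers, of which 0 passed limma's test or the second rule, summed to 8078 and 9620 in the tumors and 10860 and 9494 in normal ureter. With no overlap 0 of the 10 were higher and 3 lower, beside 29.4% and 27.7% of all genes tested, and 7 overlapped. Their median log2 difference was -0.08. Those with the smallest p, Kdr, Cldn5, Egfl7 and Tek, had log2 differences of -0.93, -0.52, -0.40 and -0.56. Emcn was the brightest, with 1193 and 2318 in the tumors and 2105 and 1477 in normal ureter. Clec18a did not exceed 39.6 on any array.

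The pattern of Clec4n over the 4 arrays was most like that of Slc26a4, at a Euclidean distance of 0.40 between centred log2 values. Next came Gpr176, Atp6v0d2, Scin and F2r, at 0.63 to 0.74. Atp6v0d2, a proton pump subunit, gave 1016 and 1812 in the tumors and 116 and 120 in normal ureter, the higher signal again on tumor replicate 2. With 4 arrays such likeness describes these samples and no more.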

How the data were processed

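Total RNA of 2 ureter tumor and 2 normal ureter samples was measured on one-colour arrays. The deposited table held linear signal intensity per probe set, which the authors computed by MAS5, as stated per the submitters' processing notes. Its version and filters were not given in the sources used here. Every array had a mean of 500 after trimming 2% at each end. Of 45101 probe sets, 64 controls were left out, and symbols came from the platform annotation, updated through the GRCm38.p6 gene table. Of a gene's probe sets, the one with the highest mean log2(signal + 16) stood for it, a scale on which changes of dim genes come out too small. Genes at or above the 40th percentile of that mean (a signal of 54.6), used in place of the planned mean signal, were tested, ureter tumor minus normal ureter, with limma 3.58.1 in R 4.3.3, an intensity trend and two-sided Benjamini-Hochberg adjusted p-values. There were 2 residual and 2.11 prior degrees of freedom, and the p-values measure only the spread between these samples. An exact permutation test of 2 against 2 cannot go below p = 0.333. The number of arrays limits the precision.

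Members and gene lists were chosen with earlier results of these data known. Per-array values were given for up to 5 members of each role group by smallest p, the brightest and those differing 8-fold between tumors. From partner and marker lists the genes past the threshold were named, otherwise up to 4 by smallest p, with the brightest gene of each cell list. The likeness of patterns was computed for the member with the smallest p. Members below the filter and other genes were named after their values were seen. The fit was tested on simulated data. Alternatives were pseudocounts, normalization, filters, handling of probe sets, trend, a replicate block and leaving out each array. Figures used matplotlib 3.10.9.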

Additional observations from a re-analysis of the deposited data

Results flagged for a closer look

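Outside the single-gene probe sets, 1425407_s_at is annotated to several Clec genes and entered no comparison. It gave 834 and 595 in the tumors, against 198 and 167 in normal ureter, a log2 difference of 1.86, with both tumor arrays above both normal arrays. The probe set 1425436_x_at, annotated to several Klra genes, entered no comparison either and went the other way. It gave 39.9 and 56.5 in the tumors, against 109 and 120 in normal ureter. Its log2 difference was -1.04, with both tumor arrays below both normal arrays.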

How the results depend on the processing

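Of all genes tested, 187 passed, and 1880 passed at an unadjusted p under 0.05 with 2-fold. The count was 35 with centring on the array median, 117 with averaged probe sets, 473 with every probe set and 2 without the intensity trend. Among the members 0 passed higher. Clec4n alone (1) passed with a pseudocount of 64, quantile normalization or averaged probe sets, and Clec4n and Clec4a2 (2) with a filter at the 60th percentile or every probe set. By the second rule 5 were higher, 9 with no filter, and 0 were lower, 1 with no filter (Klrk1), every probe set or the replicate block. Leaving out 1 array at a time gave 0 to 5502 genes, 0 to 7 members higher and 0 to 2 lower past the test, and 2 to 6 higher and 0 to 2 lower by the second rule. The high counts came without a tumor array, which leaves 1 residual degree of freedom between the similar normal arrays, and 0 genes passed without either normal array. The lone array is then assumed to vary like the other group. The labels share replicate numbers 1 and 2 between groups without saying that they pair samples. The correlation of same-numbered deviations was 0.04, and with the replicate block 0 genes passed. Centring on the array median raised the median difference of all genes tested by 0.20 (log2), and quantile normalization by 0.017. Signs turned for Clec1a (0.048 with quantile normalization, 0.081 with centring), Clec4g (0.18 and 0.17), Clec4b1 (0.015 with centring), Clec14a (0.0036 with centring, 0.37 with averaged probe sets), Inppl1 (0.11 with centring) and Prf1 (-0.21 with averaged probe sets). Over single arrays left out the differences ran from -0.35 to 0.12 for Clec1a, -0.55 to 0.19 for Clec4b1, -0.10 to 0.044 for Clec4g, -0.25 to 0.54 for Klrd1, -0.24 to 0.055 for Inppl1 and -0.99 to 6.49 for Gzma. The cause of these shifts was not tested.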
